A study of Homo sapiens with 12 samples.

Results

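The genes described here are the splicing factor and spliceosome genes of a table of 26318 genes, chosen as the rows annotated as protein coding whose symbol begins with SRSF, HNRNP, SF3A, SF3B, SNRP, PRPF or U2AF. The rule found 74 genes. A further 77 rows with like symbols carried another biotype, 74 of them processed pseudogenes, and were not counted as splicing genes. Poly(A) RNA had been sequenced from TMD8, an established human line of activated B cell (ABC) lymphoma, a tumour type whose growth is known to depend on the transcription factor IRF4. There were 6 libraries from cells given a scramble short hairpin RNA (shRNA), called control here, and 6 from cells given an shRNA against IRF4, all from pellets taken at 24 h. Both groups carried an shRNA, no untreated cells were among the samples, and all come from 1 cell line, per the sample titles, although a cell line field counts upward from TMD8 with the sample. Library names split each group into a first and a second set of 3, called library series 1 and 2 here, and what this split stands for (hairpin, culture or run) is not stated. Nothing in the labels says whether replicates were cultured separately, so each p-value measures the spread of these libraries alone, which may be technical.

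The spliceosome removes introns in ordered steps. The U1 snRNP, a particle of small nuclear RNA and protein, marks the start of an intron, U2AF and the SF3A and SF3B parts of the U2 snRNP mark its end, and the tri-snRNP with its PRPF proteins and the complex around PRPF19 then join. A ring of Sm proteins, encoded by SNRP genes, forms the core of the snRNPs other than U6. SR proteins (SRSF genes) mostly favour the use of the exons they bind, and many hnRNPs oppose it or tune it. In B cells the choice between membrane and secreted immunoglobulin and between forms of CD45 is a textbook case of such regulation, and SF3B1, U2AF1 and SRSF2 are recurrently mutated in blood cancers. The counts used here are sums per gene and do not show isoforms.

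Libraries held 31.3 to 38.2 M counts (M, 1e6), at which a floor of 3 counts was worth 0.0763 to 0.0981 counts per 1e6 counts (CPM). IRF4 fell from 1481 ± 55.9 CPM (SD, n = 6) in control libraries to 610.9 ± 101 CPM with IRF4 shRNA, 41.3% of control, with no overlap (log2 fold change -1.28, SE 0.088, adjusted p = 1.41e-08 by edgeR's quasi-likelihood test; exact two-sided permutation p = 0.00216, the smallest that 6 against 6 allows). The remaining level was 34.7% in library series 1 and 47.9% in series 2. The summed level of 8 B cell markers was 4570 to 5140 CPM in controls and 6490 to 6830 CPM with IRF4 shRNA. Of the 7 tested, 5 were higher and 1 lower (85.7%), beside 48.2% of all genes tested. Markers of T and myeloid cells summed to 5.67 to 8.51 and 5.89 to 7.5 CPM (7 of 13 genes in the table, 1 higher and 1 lower, CD3E listed at 0 in all controls). Epithelial, stromal and erythroid markers summed to 7.14 to 9.56 and 12.1 to 15.1 CPM (9 of 12 in the table, 3 higher, KRT18 listed at 0 throughout), most of it COL1A1 and PECAM1. The part these shifts play in the splicing genes was not tested, and in bulk samples fewer cells of a type and less RNA per cell cannot be told apart.

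Of the 74 splicing genes, 72 passed the filter on low counts. HNRNPCL2 (0.0698 CPM in controls) and SNRPN (0.0152 CPM in controls, listed at 0 with IRF4 shRNA) did not. At an adjusted p under 0.05 (edgeR, Benjamini-Hochberg over all 16437 genes tested), 15 were higher with IRF4 shRNA, 18 were lower and 39 were not called. This is 45.8% of those tested, beside 48.2% of all genes (24.2% higher and 23.9% lower), so the number of calls is near the background and is not a result about splicing genes. Their changes were small. The median size of the log2 fold change was 0.097, beside 0.22 over all genes. Only 10 called splicing genes, 13.9% of those tested, differed by at least 1.2-fold, with 4 higher and 6 lower, beside 34.9% of all genes. At 2-fold the count was 0, beside 8.39% of all genes. The 18 lower genes and the 6 lower by at least 1.2-fold each include HNRNPA1 and its copies HNRNPA1L2 and HNRNPA1P48. These rows may share reads and are not separate results.

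Splicing genes were abundant, with a median of 139 CPM in controls beside 15.5 CPM over all genes tested. Among genes of at least 100 CPM in controls, 23 of 46 splicing genes were called (50%) beside 63.3% of 2058 genes, and 7 (15.2%) differed by at least 1.2-fold beside 36.6%. The median size of the log2 fold change at that level was 0.104 for the splicing genes and 0.179 for all genes. The groups did not overlap in 11 higher and 13 lower splicing genes, 33.3% of those tested, beside 30.8% of all genes. HNRNPA1, HNRNPA1L2 and HNRNPA1P48 are again counted apart among the 13 lower. Together the 74 genes took 1.65% ± 0.032 of the counts of control libraries and 1.70% ± 0.0087 of those with IRF4 shRNA (SD, n = 6). These are shares of raw totals. On the TMM scale of the other values the sum went the other way, from 16900 ± 251 to 16560 ± 72.5 CPM, with overlap. The falls of HNRNPA1 and its copies are part of that sum. The balance between rises and falls depends on the scaling. Main calls were 45.5% higher, against 70.7% with library size alone (29 higher, 12 lower), 35.5% with TMM over protein-coding genes (11 higher, 20 lower) and 32.4% with the trend on GC content removed (11 higher, 23 lower). Over all genes the share of calls that were higher moved the same way, from 50.3% to 63.9%, 43.6% and 42.1%. No called gene changed sign under these scalings, and 23 of the 33 (11 higher, 12 lower) kept their call under every one of them.

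**Figure D1:**
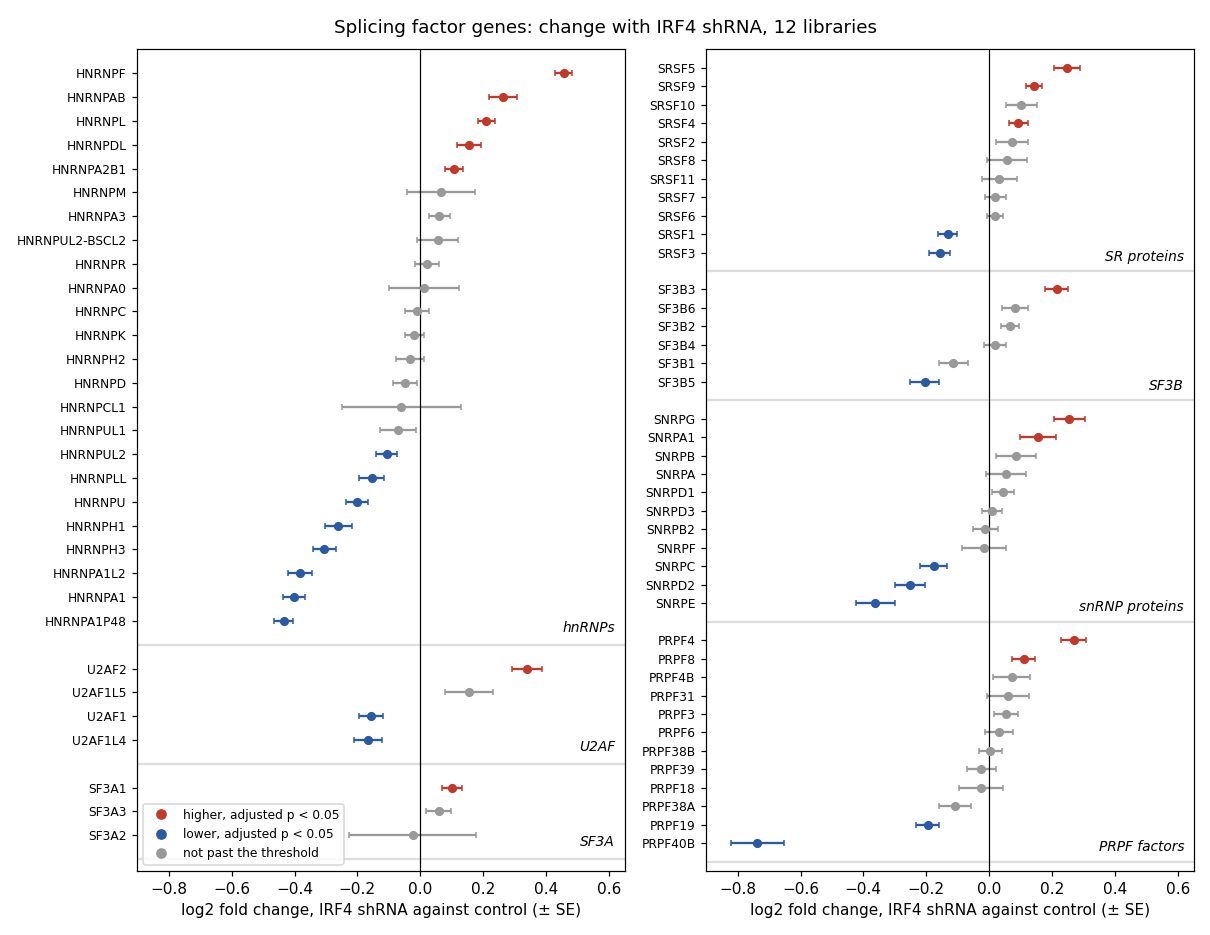
Log2 fold change (± SE) with IRF4 shRNA against control for the 72 splicing genes tested, of which 1 is not drawn, by family, over 12 libraries. HNRNPF and U2AF2 lie farthest to the right, PRPF40B farthest to the left at -0.74, and most genes lie within 0.2 of 0.

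Recognition of the end of the intron. U2AF2, the large U2AF subunit that binds the polypyrimidine tract, rose, while its partner U2AF1, which contacts the AG at the intron end, fell slightly. U2AF2 (chr19:55654146-55674716, plus strand) stood at 486 to 604 CPM (median 531) in controls and at 656 to 709.5 CPM (median 668) with IRF4 shRNA. Every IRF4 shRNA library lay above every control, and control libraries 5 and 6 were the highest controls. The change was 1.26-fold, a log2 fold change of 0.34 (SE 0.048, adjusted p = 3.52e-05). U2AF1 stood at 127 to 143 CPM (median 137) in controls, and 114 to 127 CPM (median 124) with IRF4 shRNA, a log2 fold change of -0.16 (SE 0.037, adjusted p = 0.00293). The groups touched, since the highest IRF4 shRNA library reached the lowest control. U2AF1L4, a paralog of the small subunit, had a log2 fold change of -0.17 (adjusted p = 0.00653), and 28.8% of its 100-base windows are shared with the gene AD000671.2. Both falls lost their call when library size alone scaled the counts (adjusted p = 0.0813 for U2AF1 and 0.1 for U2AF1L4).

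U2AF1L5 is annotated on the same chromosome as U2AF1 and lies in a stretch of the hg38 assembly known as a false duplication. It shared 88.8% of its 100-base windows with other genes, and U2AF1 shared 88.4%, so their counts cannot be told apart with certainty. U2AF1L5 read 30.04 to 43.5 CPM (median 33.1) in controls, and 35.6 to 40.1 CPM (median 37.9) with IRF4 shRNA, a log2 fold change of 0.15 (adjusted p = 0.111). Control library 4, at 43.55 CPM, stood alone, and without it the log2 fold change was 0.24 (adjusted p = 0.00102). Summed, the pair went from 170.5 ± 3.82 CPM in control libraries to 160.3 ± 5.13 CPM in those with IRF4 shRNA (SD, n = 6). The log2 fold change of the sum was -0.088 (SE 0.03, adjusted p = 0.0257), about the size of the smaller changes in the set.

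SF3A and SF3B, the U2 snRNP subcomplexes that hold the branch point, moved little. SF3B3, a scaffold of beta-propeller domains, rose from controls at 206 to 235 CPM (median 225) to IRF4 shRNA libraries at 249 to 265 CPM (median 261), a log2 fold change of 0.21 (SE 0.037, adjusted p = 0.000216), with no overlap. SF3B5, a small subunit, fell from controls at 39.8 to 47.5 CPM (median 42) to IRF4 shRNA libraries at 35.8 to 38.6 CPM (median 36.8), a log2 fold change of -0.21 (SE 0.046, adjusted p = 0.00171), again without overlap. SF3A1 rose by 0.10 (adjusted p = 0.0126), a call lost when TMM used protein-coding genes (0.0698) or when the GC trend was removed (0.123). SF3B1, the subunit that clamps the branch point helix, read 834 to 1005 CPM (median 939.5) in controls, and 827 to 892 CPM (median 858) with IRF4 shRNA. Its log2 fold change of -0.11 (adjusted p = 0.0579) missed the threshold. It passed without control library 5 or 6 (adjusted p = 0.0253 and 0.00939), with TMM over protein-coding genes (0.00944) and with the GC trend removed (0.000516). For the rest, log2 fold changes were 0.067 (adjusted p = 0.0633) for SF3B2, 0.019 (adjusted p = 0.683) for SF3B4, 0.082 (adjusted p = 0.119) for SF3B6, whose protein touches the branch point adenosine, and 0.058 (adjusted p = 0.245) for SF3A3. SF3B2 passed without any 1 of IRF4 shRNA libraries 1, 2, 3, 5 or 6 (adjusted p from 0.0127 to 0.0446), and SF3B6 without IRF4 shRNA library 6 (0.0466). With library size alone SF3B2, SF3B4, SF3B6 and SF3A3 passed as higher (adjusted p = 0.000576, 0.0342, 0.00608 and 0.0122). SF3A2, which differed between the library series, is described with them.

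SR proteins. Of the 11 SRSF genes tested, 3 were higher and 2 lower (45.5%, beside 48.2% of all genes). None reached 1.2-fold, beside 34.9% of all genes. The share of all counts in the family went from 0.245% ± 0.0083 to 0.263% ± 0.0027 with IRF4 shRNA (SD, n = 6), and on the TMM scale the sums, 2516 ± 71 and 2562 ± 23.4 CPM, overlapped. SRSF5 (SRp40) was the largest change. It stood at 253 to 299 CPM (median 286) in controls, and 325 to 341 CPM (median 332) with IRF4 shRNA, a log2 fold change of 0.25 (SE 0.042, adjusted p = 0.000175). All IRF4 shRNA libraries lay above all controls, and control libraries 5 and 6 were the lowest. SRSF9 (SRp30c) moved from controls at 119 to 124 CPM (median 123) to IRF4 shRNA libraries at 133 to 137 CPM (median 136), a log2 fold change of 0.14 (SE 0.026, adjusted p = 0.000336). SRSF4 rose by 0.093 (adjusted p = 0.0216), a call lost with protein-coding TMM and with the GC trend removed. SRSF1, the founding member of the family, fell from controls at 359 to 388 CPM (median 370.4) to IRF4 shRNA libraries at 332 to 348 CPM (median 341), a log2 fold change of -0.13 (SE 0.029, adjusted p = 0.00174). Of its 100-base windows, 49.9% are shared with the gene AC015813.2. SRSF3, the shortest SR protein, fell from controls at 282 to 316 CPM (median 303) to IRF4 shRNA libraries at 263 to 278 CPM (median 268), a log2 fold change of -0.16 (SE 0.033, adjusted p = 0.00113). Neither overlapped between groups, and both lost their call with library size alone. The other 6, SRSF2, SRSF6, SRSF7, SRSF8, SRSF10 and SRSF11, had log2 fold changes from 0.018 (SRSF6) to 0.10 (SRSF10) and were not called.

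**Figure D2:**
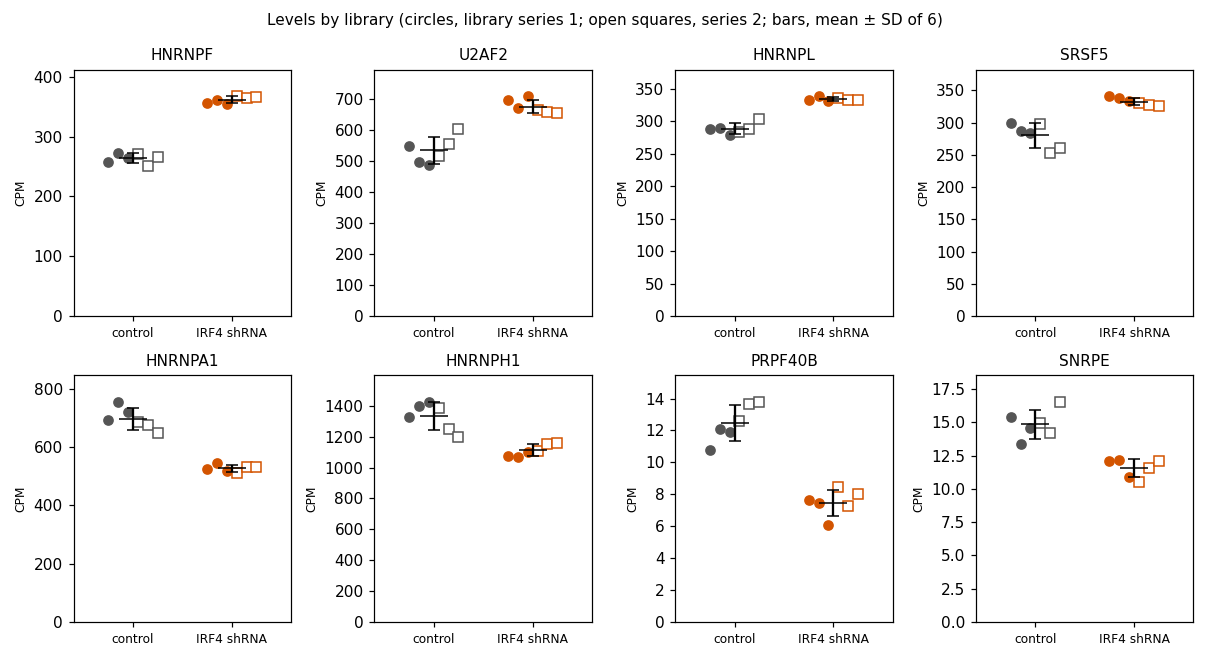
CPM of 8 splicing genes in each of the 12 libraries, with library series 1 as circles and series 2 as open squares, and the mean ± SD of 6 libraries. In all 8 genes the IRF4 shRNA libraries lie wholly on 1 side of the controls, from 354.5 to 368 CPM against 251.5 to 272 CPM for HNRNPF.

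HnRNPs that bind G runs. HNRNPF rose while its close relatives HNRNPH1 and HNRNPH3 fell. The proteins of this group bind runs of G and act on exon choice and on polyadenylation, HNRNPF and HNRNPH1 in the secreted form of immunoglobulin heavy chain among others. HNRNPF (chr10:43385617-43409166, minus strand) stood at 252 to 272 CPM (median 265) in controls, and 354 to 368 CPM (median 363) with IRF4 shRNA. The 1.37-fold change, a log2 fold change of 0.46 (SE 0.028, adjusted p = 3.67e-09), was the largest rise among the splicing genes and was alike in both library series. HNRNPH1 read 1200 to 1426 CPM (median 1359) in controls, and 1071 to 1161 CPM (median 1106) with IRF4 shRNA, a log2 fold change of -0.26 (SE 0.043, adjusted p = 0.000153). The gap between groups was narrow, since control library 6 was at 1200 CPM and IRF4 shRNA library 6 at 1161 CPM. HNRNPH3 fell from controls at 135 to 156 CPM (median 149) to IRF4 shRNA libraries at 117 to 121 CPM (median 120.1), a log2 fold change of -0.31 (SE 0.036, adjusted p = 5.84e-06). HNRNPH2 had a log2 fold change of -0.033 (adjusted p = 0.58).

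Other hnRNPs that rose were HNRNPAB, HNRNPL, HNRNPDL and HNRNPA2B1. HNRNPL, which binds CA repeats, moved from controls at 279 to 303 CPM (median 288) to IRF4 shRNA libraries at 331 to 339 CPM (median 333), a log2 fold change of 0.21 (SE 0.026, adjusted p = 1.03e-05). Of its 100-base windows, 20.8% are shared with 3 other genes. Its paralog HNRNPLL, known for repressing CD45 exons in lymphocytes, moved the other way, from controls at 39.8 to 45 CPM (median 43.5) to IRF4 shRNA libraries at 37.2 to 40.3 CPM (median 38.5), a log2 fold change of -0.15 (SE 0.039, adjusted p = 0.00415). That fall overlapped between groups and was not called with library size alone. HNRNPAB read 123 to 147 CPM (median 129) in controls, and 155 to 163 CPM (median 160.2) with IRF4 shRNA, a log2 fold change of 0.26 (SE 0.044, adjusted p = 0.000146), and control libraries 5 and 6 were its highest controls. HNRNPDL rose by 0.16 (adjusted p = 0.00385) with overlap between groups, and HNRNPA2B1 by 0.11 (adjusted p = 0.00717) without. HNRNPU, an abundant chromatin-associated hnRNP, fell from controls at 1246 to 1456 CPM (median 1422) to IRF4 shRNA libraries at 1202 to 1245 CPM (median 1211), a log2 fold change of -0.20 (SE 0.036, adjusted p = 0.00026). Control library 6, at 1246 CPM, lay apart from the other controls and next to the highest IRF4 shRNA library. HNRNPUL2 fell by 0.11 on the log2 scale (adjusted p = 0.0164), a call lost when any 1 of IRF4 shRNA libraries 1, 2, 3, 5 or 6 was left out, and 44.7% of its windows are shared with the readthrough gene HNRNPUL2-BSCL2. HNRNPK, HNRNPC, HNRNPD, HNRNPR and HNRNPA3 were not called, with log2 fold changes from -0.049 (HNRNPD) to 0.061 (HNRNPA3). With the 8 pseudogene copies of HNRNPA3 added, its log2 fold change was 0.13 (adjusted p = 0.00118) instead of 0.061 (adjusted p = 0.145). HNRNPCL1, at 0.852 ± 0.179 CPM in controls, and HNRNPUL2-BSCL2 were not called and share 39.9% and 97.5% of their windows with other genes.

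HNRNPA1 and its copies. The steepest falls among the hnRNPs were HNRNPA1, HNRNPA1P48 and HNRNPA1L2, 3 rows that cannot be counted as 3 separate results. HNRNPA1 (chr12:54280193-54287088, plus strand) encodes a shuttling hnRNP that represses exons and opposes SRSF1. HNRNPA1P48 (chr16:51553436-51647132, plus strand) and HNRNPA1L2 (chr13:52642425-52643796, plus strand) are retrocopies annotated as protein coding.

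Of all 100-base windows, HNRNPA1 shared 20.1% with 11 other genes, HNRNPA1P48 33.4% and HNRNPA1L2 31.6%. HNRNPA1 read 649.9 to 755 CPM (median 689.8) in controls, and 509.7 to 545 CPM (median 528) with IRF4 shRNA, a log2 fold change of -0.40 (SE 0.036, adjusted p = 2.42e-07). HNRNPA1P48 read 487 to 532 CPM (median 511) and 361 to 382 CPM (median 378), a log2 fold change of -0.43 (SE 0.03, adjusted p = 1.28e-08). HNRNPA1L2 read 97.1 to 108 CPM (median 101) and 75 to 82.7 CPM (median 77), a log2 fold change of -0.38 (SE 0.037, adjusted p = 6.1e-07). In none of the 3 did the groups overlap.

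A further 30 rows are processed pseudogenes of HNRNPA1, and they took 39.8% of the counts of HNRNPA1 and these pseudogenes together in controls. Most of that was HNRNPA1P7, which went from 409.5 ± 24.5 to 312 ± 10.7 CPM with IRF4 shRNA (SD, n = 6), a log2 fold change of -0.39 (adjusted p = 1.29e-06). The sum over HNRNPA1, both retrocopies and the 30 pseudogenes, 33 rows, went from 1767 ± 59.7 CPM to 1331 ± 22.2 CPM with IRF4 shRNA. Its log2 fold change was -0.41 (SE 0.028, adjusted p = 1.34e-08), close to that of HNRNPA1 alone. Which of the copies are transcribed cannot be read from these counts.

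**Figure D3:**
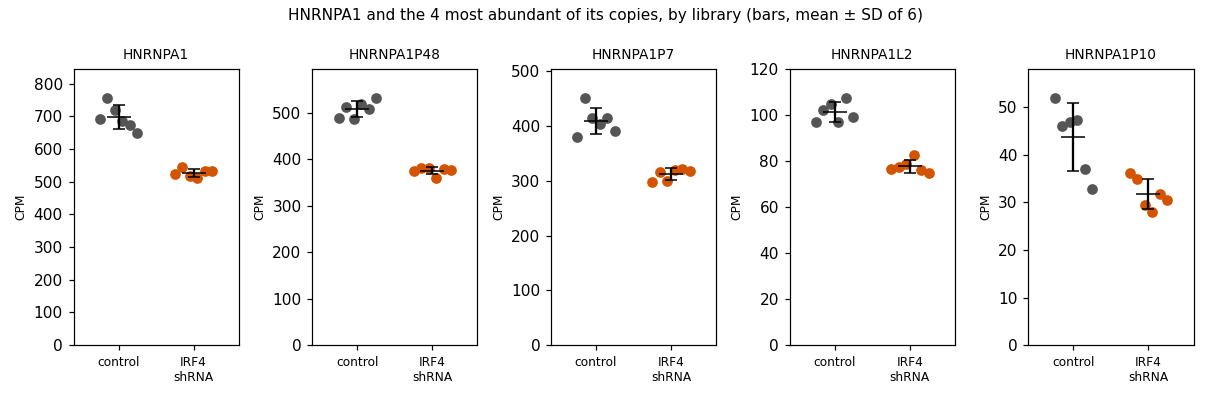
CPM of HNRNPA1 and its 4 most abundant copies in each of the 12 libraries, with the mean ± SD of 6. Each panel has its own axis from 0, and in HNRNPA1, HNRNPA1P48, HNRNPA1P7 and HNRNPA1L2 all IRF4 shRNA libraries lie below all controls.

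Proteins of the snRNPs. Of 11 SNRP genes tested, 2 were higher and 3 lower (45.5%, beside 48.2% of all genes). The Sm ring proteins did not move together. SNRPE fell from controls at 13.4 to 16.6 CPM (median 14.8) to IRF4 shRNA libraries at 10.5 to 12.1 CPM (median 11.8), a log2 fold change of -0.36 (SE 0.062, adjusted p = 0.000185). SNRPD2 fell from controls at 193 to 240.2 CPM (median 204) to IRF4 shRNA libraries at 166 to 184 CPM (median 176), a log2 fold change of -0.25 (SE 0.048, adjusted p = 0.000469). Both were without overlap, and control library 6 was the highest control in each. SNRPG, a further Sm protein, rose from controls at 16.6 to 19.7 CPM (median 17.9) to IRF4 shRNA libraries at 20.5 to 22.8 CPM (median 21.5), a log2 fold change of 0.26 (SE 0.05, adjusted p = 0.000629), also without overlap. SNRPD1 and SNRPD3 had log2 fold changes of 0.043 (adjusted p = 0.34) and 0.0094 (adjusted p = 0.832), and SNRPB and SNRPF, which differed between library series, 0.085 (adjusted p = 0.302) and -0.016 (adjusted p = 0.874). SNRPA and SNRPB2, which bind U1 and U2 RNA, were not called (0.053 and -0.012). SNRPC, the U1-C protein that helps U1 hold the start of the intron, fell from controls at 74.6 to 84.8 CPM (median 80.7) to IRF4 shRNA libraries at 65.7 to 74.8 CPM (median 70.8), a log2 fold change of -0.18 (SE 0.042, adjusted p = 0.00258). SNRPA1, the U2 A' protein, rose by 0.16 (adjusted p = 0.0382), and that call was lost with protein-coding TMM, with the GC trend removed and when any 1 of control libraries 1 to 4 or IRF4 shRNA libraries 2, 3 or 5 was left out. Pseudogenes took a large part of the counts for SNRPE (49.4% of the sum in controls), SNRPA1 (26.6%) and SNRPG (22.6%).

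PRPF factors. PRPF40B had the largest change of all 72 genes. It encodes a relative of the yeast U1 snRNP protein Prp40 with WW and FF domains, and its level was low. It stood at 10.8 to 13.8 CPM (median 12.3) in controls, and 6.07 to 8.43 CPM (median 7.55) with IRF4 shRNA, a 1.67-fold fall and a log2 fold change of -0.74 (SE 0.084, adjusted p = 3.5e-06). All IRF4 shRNA libraries lay below all controls. PRPF4, a protein of the U4/U6 particle, rose from controls at 54.4 to 61.3 CPM (median 59.1) to IRF4 shRNA libraries at 68 to 74.6 CPM (median 69.7), a log2 fold change of 0.27 (SE 0.039, adjusted p = 4.03e-05), without overlap. PRPF19, the ubiquitin ligase at the centre of the PRPF19 complex, fell from controls at 140 to 161 CPM (median 142) to IRF4 shRNA libraries at 124 to 129.9 CPM (median 126), a log2 fold change of -0.20 (SE 0.037, adjusted p = 0.000408). Control library 6, at 160.6 CPM, stood above its other controls. PRPF8, the core protein of U5, rose by 0.11 (adjusted p = 0.0198), a call lost with protein-coding TMM and with the GC trend removed. The other 9 PRPF genes were not called, with log2 fold changes from -0.11 (PRPF38A) to 0.071 (PRPF4B).

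Levels between genes can be compared only per length. Merged exons count every annotated exon, used in these cells or not, which gave 22512 bases for HNRNPU and 1924 for HNRNPA1P48. The order below depends on that choice of length. On the scale of CPM per kilobase of merged exons, the 6 highest splicing genes in controls were HNRNPA1P48 (264 ± 9.09, SD, n = 6), HNRNPH1 (140.5 ± 9.55), HNRNPK (137 ± 5.37), HNRNPA1 (137 ± 7.21), SNRPD2 (130 ± 10.2) and U2AF2 (129.8 ± 10.7). After HNRNPA1P48, whose counts are shared with HNRNPA1, neighbours in this order differed by less than their SDs. With IRF4 shRNA, U2AF2 stood at 164 ± 5.35, above HNRNPK at 135 ± 2.07 and HNRNPH1 at 117 ± 4.01. HNRNPK, which binds C-rich stretches, had a log2 fold change of -0.018 (adjusted p = 0.646).

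Within library series 1 (3 against 3), 19 splicing genes were higher and 22 lower, 56.9% beside 50.5% of all genes (25.8% higher and 24.6% lower). Within series 2, 13 were higher and 9 lower, 30.6% beside 38.1% (20.2% higher and 17.9% lower). Passing in both were 9 higher, namely HNRNPAB, HNRNPDL, HNRNPF, HNRNPL, PRPF4, SF3B3, SRSF5, SRSF9 and U2AF2, and 9 lower, namely HNRNPA1, HNRNPA1L2, HNRNPA1P48, HNRNPH3, PRPF19, PRPF40B, SNRPC, SNRPD2 and SNRPE. None passed in opposite directions. HNRNPA1 and its copies are not separate results among the 9 lower. HNRNPF had log2 fold changes of 0.43 in series 1 and 0.49 in series 2, and PRPF40B -0.72 and -0.75. U2AF2 had 0.44 in series 1 and 0.25 in series 2, and the interaction test of this difference did not pass (adjusted p = 0.0994). HNRNPH1 passed in series 1 at -0.36 and not in series 2 at -0.15 (adjusted p = 0.0583), and the test of that difference did not pass (adjusted p = 0.0782). The sign was the same in both series for 44 of 72 genes. The shares of all genes that kept their sign or passed in both series were not counted. These counts are therefore descriptions and not a result about splicing genes. Leaving out single libraries moved the series 2 counts to between 7 and 21 higher and between 7 and 23 lower, with the top of both reached without control library 4.

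**Figure D4:**
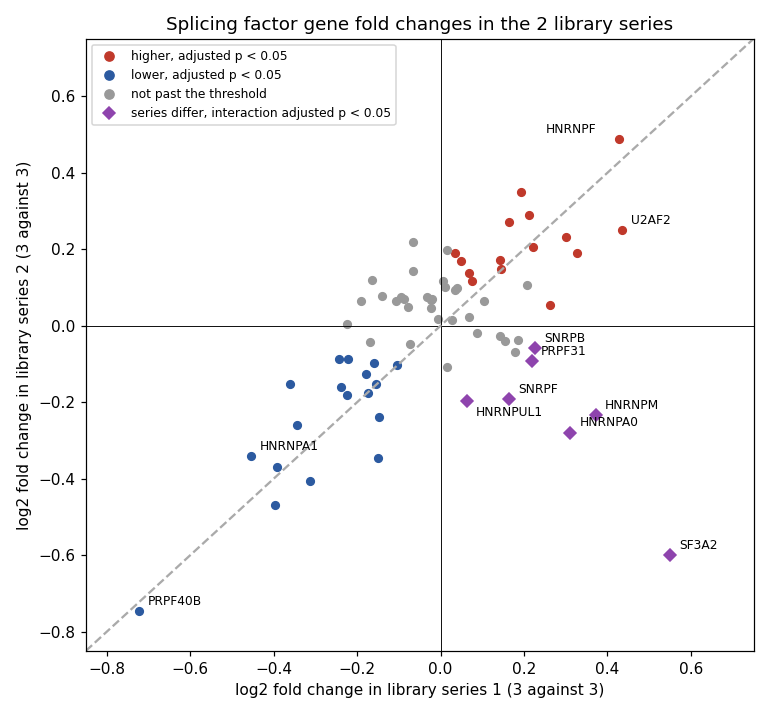
Log2 fold change with IRF4 shRNA in library series 1 (horizontal) and series 2 (vertical) for the 72 splicing genes, coloured by the call over all 12 libraries, with diamonds where the effect differed between series. HNRNPF and PRPF40B lie near the diagonal. U2AF2 lies at 0.44 and 0.25, HNRNPA1 at -0.46 and -0.34, and SF3A2 at 0.55 and -0.60.

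The effect differed between the series, by the interaction of series and group, for 7 splicing genes, all lower in series 2, 9.72% beside 14% of all genes (5.07% higher and 8.97% lower in series 2). SF3A2, a subunit of SF3A, differed most. Its log2 fold change was 0.55 in series 1 and -0.60 in series 2, a difference of -1.17 (SE 0.26, adjusted p = 0.0158). Series 1 controls read 124, 98.7 and 83.2 CPM against 148, 149 and 154 CPM with IRF4 shRNA. Series 2 controls read 95.6, 179 and 183 CPM against 105, 101 and 94.2 CPM. Control libraries 5 and 6 were the highest of all 12, while control library 4 lay within the range of the series 1 controls. HNRNPM, a GU-binding hnRNP, had 0.37 in series 1 and -0.23 in series 2, a difference of -0.62 (SE 0.14, adjusted p = 0.0151), and HNRNPA0 had 0.31 in series 1 and -0.28 in series 2, a difference of -0.61 (SE 0.16, adjusted p = 0.0248). In both genes control libraries 5 and 6 again exceeded every other library. Without these 2 libraries the log2 fold change over the rest was 0.32 for SF3A2 (adjusted p = 0.0996), 0.24 for HNRNPM (0.0156) and 0.15 for PRPF31 (0.0303). SNRPF, PRPF31, SNRPB and HNRNPUL1 had differences of -0.37, -0.33, -0.30 and -0.28 (adjusted p = 0.0282, 0.0454, 0.0498 and 0.04998).

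These 7 calls rest on few libraries. The count ran from 0 without IRF4 shRNA library 6 to 30 without control library 4, was 14 without control library 1 and was 2 without any other single library. Measured GC content moved with the same difference. Across all genes, deviations of libraries from their group mean correlated with transcript GC by a Spearman rho of 0.44 and 0.623 in control libraries 5 and 6 and between -0.53 and -0.0528 in the other controls. Among the IRF4 shRNA libraries, rho was 0.243 to 0.325 in series 1 and -0.344 to -0.201 in series 2. Over the 72 splicing genes, the difference between series correlated with transcript GC at a Pearson r of -0.497 and a Spearman rho of -0.462, beside a rho of -0.544 over 15832 genes. These correlations run across genes that share the same 12 libraries and carry no test. SF3A2, at 66.6% GC, is the splicing gene with the highest GC content, and SNRPF, at 35.4%, is among the lowest. With the GC trend removed the count of genes that differed between series was again 7, but whether they were the same genes is not given here. Over all 12 libraries SF3A2 was then called lower, at -0.17 (adjusted p = 0.00211), instead of -0.025 (adjusted p = 0.932). Over all 12 libraries the log2 fold change of splicing genes had a rho of 0.0665 with GC, beside 0.0628 over 15832 genes. The part of GC content in these differences and in the calls was not tested further.

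**Figure D5:**
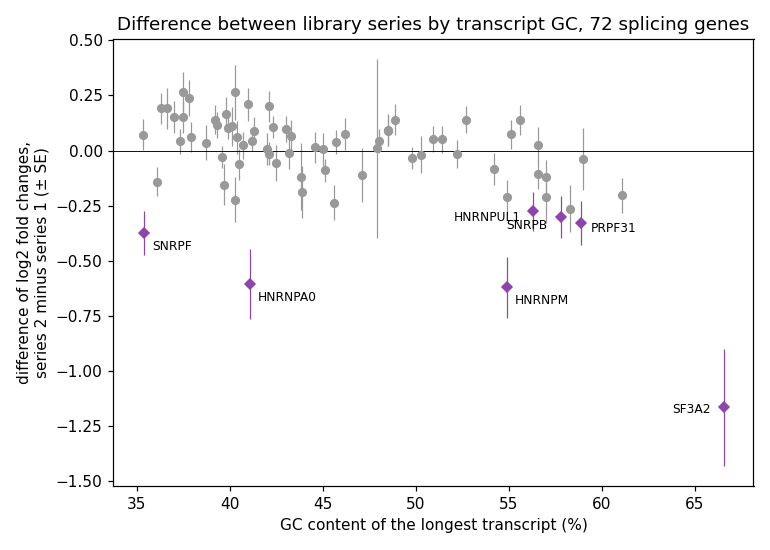
Difference of log2 fold changes between library series (series 2 minus series 1, ± SE) against GC content of the longest transcript for the 72 splicing genes, with diamonds for the 7 genes whose difference passed. Genes of high GC lie lower on average, SF3A2 is the extreme at 66.6% GC, and SNRPF and HNRNPA0 are at low GC.

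Promoter sequences. RefSeq promoters (GRCh38.p14, 250 bases before to 50 after the start) were found for 64 of the 74 splicing genes. Those of the strongest rises (HNRNPF and U2AF2), the strongest fall (PRPF40B) and the abundant gene HNRNPU are shown, since IRF proteins bind short GAAA repeats and these letters can be looked for. Capitals mark matches to the 4 motifs searched on both strands, the interferon-stimulated response element ISRE (GAAA, any 2 bases, GAAA), an ETS-IRF composite element (GGAA, any 2 bases, GAAA), CCGGAAGT (ETS) and CACGTG (E-box). The intervals are chr10:43408808-43409107, minus strand for HNRNPF, chr19:55654785-55655084, plus strand for U2AF2, chr12:49623311-49623610, plus strand for PRPF40B and chr1:244864494-244864793, minus strand for HNRNPU.
HNRNPF: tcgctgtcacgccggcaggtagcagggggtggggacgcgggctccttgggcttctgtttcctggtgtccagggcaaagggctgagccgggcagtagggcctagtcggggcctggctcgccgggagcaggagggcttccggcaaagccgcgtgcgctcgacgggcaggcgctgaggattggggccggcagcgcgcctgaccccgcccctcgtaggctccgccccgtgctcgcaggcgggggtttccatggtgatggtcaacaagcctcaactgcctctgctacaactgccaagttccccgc
U2AF2: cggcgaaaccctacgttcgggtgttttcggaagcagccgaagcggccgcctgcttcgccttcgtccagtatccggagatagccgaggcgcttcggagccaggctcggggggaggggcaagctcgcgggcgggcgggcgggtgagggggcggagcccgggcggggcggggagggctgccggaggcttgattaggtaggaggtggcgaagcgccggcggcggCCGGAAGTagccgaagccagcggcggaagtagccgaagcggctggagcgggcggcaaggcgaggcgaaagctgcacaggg
PRPF40B: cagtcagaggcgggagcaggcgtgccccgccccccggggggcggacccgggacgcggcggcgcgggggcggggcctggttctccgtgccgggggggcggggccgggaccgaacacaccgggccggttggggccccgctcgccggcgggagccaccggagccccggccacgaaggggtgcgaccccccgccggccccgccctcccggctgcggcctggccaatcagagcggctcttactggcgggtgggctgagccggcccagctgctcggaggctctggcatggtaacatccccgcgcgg
HNRNPU: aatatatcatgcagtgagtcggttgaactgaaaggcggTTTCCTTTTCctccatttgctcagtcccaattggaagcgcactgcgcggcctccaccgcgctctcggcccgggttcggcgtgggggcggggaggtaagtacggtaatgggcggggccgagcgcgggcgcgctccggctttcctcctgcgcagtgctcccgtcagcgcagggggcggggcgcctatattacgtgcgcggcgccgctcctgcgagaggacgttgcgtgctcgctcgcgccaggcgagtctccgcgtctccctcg

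The HNRNPF and PRPF40B windows held none of the 4 motifs, U2AF2 held CCGGAAGT once, and HNRNPU held the ISRE letters once, on the opposite strand. The ISRE letters were in 4 of the 64 promoters (6.25%), those of HNRNPD, HNRNPU, SNRPB2 and SNRPC, beside 3.65% of 27305 promoters of the same length. Of these 4 genes, HNRNPU and SNRPC were lower and the other two not called. The ETS-IRF letters were in 1 (1.56%, SF3B4) beside 2.84%. CCGGAAGT was in 14 (21.9%) beside 4.44%. Among splicing genes with a promoter in the table, it was in 5 of 14 called higher (SF3A1, SNRPA1, SRSF4, SRSF5 and U2AF2) and 1 of 16 called lower (SNRPE). The calls of SF3A1, SNRPA1 and SRSF4 were lost with protein-coding TMM and with the GC trend removed. Shares among all genes called higher or lower were not counted, and the 27305 promoters were not limited to genes tested here. CACGTG was in 8 (12.5%) beside 7.43%. The motifs can overlap in GAAA and GGAA letters. A match describes letters only, and binding of IRF4 was not measured.

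Splicing genes outside the rule were counted in lists of pathway members. Of 24 tested snRNP and tri-snRNP partners, 6 were higher and 5 lower (45.8%). HTATSF1, a U2 snRNP partner, went from 52.8 ± 3.71 to 62.7 ± 2.59 CPM (log2 fold change 0.25, adjusted p = 0.000635), and SART3, which recycles U4/U6, from 124 ± 2.65 to 112 ± 2.43 CPM (log2 fold change -0.15, adjusted p = 0.000561). Of 27 LSM and SMN assembly genes, 3 were higher and 7 lower (37%). LSM6, part of the ring on U6, rose from 16.4 ± 0.635 to 23.4 ± 0.794 CPM (log2 fold change 0.52, adjusted p = 1.38e-07), while LSM2 of the same ring fell from 25.3 ± 2.17 to 19.5 ± 0.752 CPM (log2 fold change -0.37, adjusted p = 7.37e-05). GEMIN4 and GEMIN2, subunits of the SMN complex that loads Sm rings, had log2 fold changes of 0.32 and -0.40 (adjusted p = 9.17e-06 and 0.000333). Of 37 genes of the PRPF19 complex, helicases and exon junction complex, 9 were higher and 7 lower (43.2%). EIF4A3, the helicase that anchors the exon junction complex, fell from 117 ± 1.9 to 95 ± 1.38 CPM (log2 fold change -0.30, adjusted p = 3.37e-07). PLRG1, a partner of PRPF19, fell from 99.6 ± 5.49 to 84.7 ± 1.91 CPM (log2 fold change -0.23, adjusted p = 0.000166), and DDX41 rose from 88.3 ± 4.32 to 107 ± 3.07 CPM (log2 fold change 0.28, adjusted p = 2.11e-05).

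Of 25 SR-related proteins and SR kinases, 7 were higher and 2 lower (36%). SRPK2, a kinase of SR proteins, rose from 47.5 ± 3.67 to 61.3 ± 0.764 CPM (log2 fold change 0.37, adjusted p = 1.3e-05), and TNPO3, which imports SR proteins into the nucleus, from 118 ± 5.9 to 138 ± 2.16 CPM (log2 fold change 0.22, adjusted p = 0.00013). Of 47 other regulators of alternative splicing, 10 were higher and 16 lower (55.3%). PCBP1 rose from 215 ± 20.1 to 271 ± 15 CPM (log2 fold change 0.34, adjusted p = 0.000223) and DDX5 from 1150 ± 48.1 to 1360 ± 83 CPM (log2 fold change 0.25, adjusted p = 0.00016). NONO, a paraspeckle protein, fell from 582 ± 26.5 to 480 ± 6.86 CPM (log2 fold change -0.28, adjusted p = 3.88e-06), and RBMX from 427 ± 25 to 350 ± 12 CPM (log2 fold change -0.29, adjusted p = 3.13e-05). Of 11 genes of the minor spliceosome, 3 were higher and 2 lower (45.5%), and ZRSR2, which recognises the end of minor introns, rose from 8.54 ± 0.62 to 10.3 ± 0.304 CPM (log2 fold change 0.27, adjusted p = 0.00165). The number called in each direction depends on the scaling. The alternative splicing regulators were 18 higher and 8 lower with library size alone, and 6 higher and 18 lower with protein-coding TMM. The snRNP partners were 12 higher and 3 lower with library size alone, and 4 higher and 9 lower with the GC trend removed. For LSM and SMN genes these were 6 higher and 4 lower, and 3 higher and 9 lower. The list of the PRPF19 complex, helicases and exon junction complex was 6 higher and 13 lower with protein-coding TMM, and 7 higher and 15 lower with the GC trend removed. Its 7 lower genes became 4 without any 1 of IRF4 shRNA libraries 1, 2, 3 or 5. The 2 lower SR-related genes became 0 with library size alone, 4 with protein-coding TMM and 6 with the GC trend removed. They became 5 without control library 6, 0 without IRF4 shRNA library 1, and 1 without control library 5 or IRF4 shRNA library 2, 4, 5 or 6. The 2 lower genes of the minor spliceosome became 5 with protein-coding TMM and 4 with the GC trend removed. They became 4 without control library 6, and 1 without control library 1 or 4 or any 1 IRF4 shRNA library.

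None of these lists had a median log2 fold change beyond 0.1 in size. All shares lie near or below the 48.2% of all genes except that of the alternative splicing regulators, at 55.3%. Among all genes of at least 100 CPM in controls the share called was 63.3%. The lists were not split by level.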

How the data were processed

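Expected counts per gene, estimated by the authors from their reads, were deposited in 1 table of 26318 genes and 12 libraries, not normalized. STAR, HTSeq and hg38 are named by the submitters' processing notes. The step that gave fractional values (66.6% were whole at a tolerance of 1e-06), the annotation release and the use of strand are not given in the sources used here, so near-identical and antisense genes may share reads.

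Counts were rounded and tested with edgeR 4.0.16 in R 4.3.3 (quasi-likelihood, TMM, filterByExpr at a minimum count of 10) over 16437 genes and 12 libraries (31.3 to 38.2 M counts (M, 1e6)), then within each library series and for the interaction of series and group, where a negative value is a lower effect in series 2. Adjusted p-values are Benjamini-Hochberg over all genes, called under 0.05. SE is the log2 fold change divided by the root of F. CPM used TMM-scaled library sizes, values are mean ± SD, and intervals and floors cover counting error only. Script results were checked on simulated counts. GC content, merged exon length and shared 100-base windows came from GENCODE release 29, promoters from RefSeq.

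The members and lists were chosen with earlier results of these data known. Named were IRF4, up to 10 genes higher and 10 lower by p, up to 6 by interaction p, the 6 highest per kilobase, all U2AF, SF3A and SF3B genes, genes with near-identical copies, and up to 2 higher and 2 lower genes of each list. Others named were chosen after their values were seen. Alternatives were DESeq2 1.42.0, other scalings and filters, each library left out, controls 5 and 6 left out, series as covariate, the replicate block, sums per series, the GC trend removed and copies summed (the sum over all near-identical copies was chosen after seeing the data). Proteins were not used here. A gene and a set of sequences are not reported here.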

Additional observations from a re-analysis of the deposited data

Results flagged for a closer look

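Within groups of 6, some libraries lay apart from the other 5, with a gap of over 0.625 of the group's range. Chance flags about 1 in 20 groups, and 146 combinations of gene and group were checked, so the flags below are about as many as chance gives. HNRNPU was low in control library 6 at 1246 CPM (others 1403 to 1456), PRPF38B was low there at 126.4 CPM (140.5 to 145.8), and PRPF19 was high there at 160.6 CPM (140 to 145.1). SRSF9 was low in control library 1 at 118.8 CPM (122.3 to 124.3), and U2AF1L5 was high in control library 4 at 43.55 CPM (30.04 to 33.57). IRF4 shRNA library 4 was low for HNRNPA1P48 at 360.9 CPM (374.6 to 381.7) and high for HNRNPUL2 at 189.3 CPM (179.6 to 183.1).

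The effect of IRF4 shRNA differed between the library series, by edgeR's test of the interaction with Benjamini-Hochberg adjustment, for 7 splicing genes and for IRF4 itself. The differences in log2 fold change, series 2 minus series 1, were -1.17 for SF3A2 (adjusted p = 0.0158), -0.62 for HNRNPM (0.0151), -0.61 for HNRNPA0 (0.0248), -0.37 for SNRPF (0.0282), -0.33 for PRPF31 (0.0454), -0.30 for SNRPB (0.0498) and -0.28 for HNRNPUL1 (0.04998). For IRF4 the difference was 0.46 (0.0011).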

How the results depend on the processing

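Depth limits little here, since only 4 splicing genes lay below 10 CPM. Counts over all 12 libraries were 14 to 17 higher and 17 to 21 lower when each library was left out. They moved with library size alone (29 higher) and with sums per series, 2 against 2 (6 higher, 7 lower), which lost 20 of the 33 calls, PRPF8 and SRSF4 among them. The median log2 fold change of 0.018 was 0.092 with library size alone, -0.017 with protein-coding TMM, -0.025 with the GC trend removed, and 0.013 to 0.038 with 1 library left out.

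Replicate numbers are shared by the groups but the labels do not say that they pair libraries. Same-numbered libraries correlated between -0.255 and 0.13 in their deviations from the group mean, and 0 of 6 controls matched best with its own number. Those deviations include the difference between library series. In deviations from the mean of group and series, same-numbered libraries correlated between -0.074 and 0.0216. Control library 2 then matched best with its own number, at 0.0216, and the other controls did not. Within series 2, the replicate numbers of the IRF4 shRNA libraries do not follow the numbers in the library names. With the replicate block, 12 splicing genes were higher and 18 lower, and the calls of PRPF8, SNRPA1 and SRSF4 were lost. Lower genes were then 0 of the SR-related list, 1 of the minor spliceosome and 4 of the PRPF19 complex list. With the block and the GC trend removed the median was -0.022, and log2 fold changes reversed to -0.0025 for HNRNPA0, -0.051 for PRPF31, -0.0403 for SF3B4, -0.015 for SNRPB and 0.0201 for SNRPF. SF3A2 reversed to 0.017 with the replicate block alone. The cause was not tested.

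In series 1, counts were 33 higher and 14 lower with library size alone, and 17 to 21 higher and 18 to 27 lower with 1 library left out. In series 2, removing the GC trend gave 8 higher and 23 lower, and leaving out 1 library 7 to 21 higher and 7 to 23 lower. Interaction calls numbered 4 with DESeq2 size factors, 13 with the DESeq2 Wald test and 0 to 30 with 1 library left out.

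Reversed signs were limited to genes that were not called and whose main log2 fold change was under 0.1 in size. With library size alone they were HNRNPCL1 (0.013), HNRNPK (0.056), SF3A2 (0.051) and SNRPF (0.059). With protein-coding TMM they were HNRNPA0 (-0.025) and SF3B4 (-0.016). With the GC trend removed they were HNRNPA0 (-0.026), PRPF31 (-0.0504), SF3B4 (-0.04), SNRPB (-0.015) and SNRPF (0.0077). Without control libraries 5 and 6 they were HNRNPCL1 (0.013), SF3A2 (0.32) and SNRPF (0.063). Leaving out 1 library gave -0.038 to 0.10 for HNRNPA0, -0.16 to 0.038 for HNRNPCL1, -0.038 to 0.00092 for HNRNPK, -0.12 to 0.11 for SF3A2 and -0.049 to 0.029 for SNRPF. Of the other values for single genes, 25 passed the threshold and 16 no longer did. Of counts over the pathway lists, 63 moved by more than 1.5 times and 261 did not.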

Other observations

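Ratios between splicing genes that are relatives or partners were compared after their values were seen, so they are descriptions with no test. Per library, HNRNPF counts were 0.199 ± 0.0126 of HNRNPH1 counts in controls and 0.325 ± 0.00936 with IRF4 shRNA (SD, n = 6). HNRNPA2B1 over HNRNPA1 went from 1.63 ± 0.0427 to 2.32 ± 0.0671. U2AF2 over U2AF1 and U2AF1L5 together went from 3.14 ± 0.295 to 4.22 ± 0.109, and SRSF5 over SRSF3 from 0.931 ± 0.0437 to 1.23 ± 0.0478. HNRNPL over HNRNPLL went from 6.73 ± 0.471 to 8.66 ± 0.227, and SF3B3 over SF3B1 from 0.241 ± 0.00954 to 0.302 ± 0.011. In none of these 6 ratios did the groups overlap. For HNRNPF over HNRNPH1, HNRNPA2B1 over HNRNPA1 and SRSF5 over SRSF3 this was fixed in advance. Each gene of these pairs had moved without overlap, in opposite directions. The share of other gene pairs without overlap was not counted. A ratio within a library does not depend on its scaling factor, and these ratios of counts do not correct for gene length.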
